A study of Homo sapiens with 6 samples.

Results

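Messenger RNA of 36 autophagy genes was compared between SH-SY5Y cells that stably carried a lentiviral hairpin against TDP-43 (shTDP43) and cells with a control hairpin (shNC). SH-SY5Y is an established human neuroblastoma line that has traits of immature sympathetic neurons. TDP-43, encoded by TARDBP, is an RNA-binding protein that represses aberrant splicing and is lost from the nucleus of affected neurons in amyotrophic lateral sclerosis. The genes were chosen by symbol for their function in autophagy, and all 36 were found among the 26372 gene symbols of the deposited table. They cover the kinase complex that starts the process, the lipid kinase complex, membrane factors, conjugation enzymes and proteases, the ATG8 family, cargo receptors and the transcription factor TFEB. In shTDP43 and in shNC alike, the cells were infected with lentivirus, put under puromycin for 2 weeks at 2 µg/mL and kept at 1 µg/mL, so both groups carry a vector and differ in the hairpin. Each group had 3 libraries of poly(A) RNA, and each library gave 1 FPKM value per gene, that is fragments scaled to the length of the gene and to the size of the library. The cells are a selected infected population, a single hairpin stands for TDP-43 loss, and no rescue was analysed here. No label ties the 3 libraries of a group to separate cultures. The p-values therefore measure the spread between these libraries, which may be technical.

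Macroautophagy encloses cytoplasmic material in a double membrane, the autophagosome, and delivers it to lysosomes. A ULK kinase complex and a class III phosphatidylinositol 3-kinase complex start the membrane, ubiquitin-like conjugation attaches ATG8 proteins (the LC3 and GABARAP proteins) to it, and receptors that bind both ATG8 proteins and cargo bring in what is to be degraded. Neurons depend on this pathway to clear aggregates and damaged organelles. ATG4B and ATG7 have been reported elsewhere to depend on TDP-43, ATG4B through splicing and ATG7 through mRNA level.

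TARDBP (GRCh38 chromosome 1, 11012654 to 11030528) had 36.0, 33.1 and 34.8 FPKM in shTDP43, against 56.1, 56.2 and 56.6 FPKM in shNC, so the groups did not overlap. The mean was 61.5% of shNC, with a log2 difference of -0.69 (SE 0.03; limma adjusted p = 2.84e-06), so the TARDBP message was reduced but present. Its p was 0.1 by an exact permutation test (two-sided), the lowest that 3 against 3 libraries allow. The cells carried the noradrenergic genes of their line, with 9 of 10 such markers at the level tested and TH near 0. These markers also moved with the groups at a limma adjusted p under 0.05. Of the 9 tested, 5 were higher (55.6%, against 18.5% of all tested genes) and 3 lower (33.3%, against 19.6%). The sum over the 10 markers ran from 1865 to 1920 FPKM in shTDP43 and from 1670 to 1679 FPKM in shNC. Of these sums, which averaged 1896 and 1676 FPKM, the single gene CHGA supplied 520 FPKM in shTDP43 and 296 FPKM in shNC. Of the mesenchymal neuroblastoma markers 7 of 8 tested were lower (87.5%, against 19.6% of all tested genes). Their median log2 difference was -0.65, against 0.0012 for all tested genes. COL3A1 stood at 11.7%, ANXA2 at 28.9% and CD44 at 41.3% of shNC. The sum over the 10 mesenchymal markers ran from 443 to 457 FPKM in shTDP43 and from 498 to 505 FPKM in shNC. TWIST1, the 1 marker that was higher, supplied 267 FPKM of it in shTDP43 and 184 FPKM in shNC. The part of these marker changes in the autophagy values was not tested. Of 4 blood and 4 epithelial markers, CD3E, HBB, KRT5 and KRT14 were listed at 0 in all 6 libraries, while CD68 and EPCAM stood near 1 FPKM in both groups. Schwann cell and glial markers summed to between 3.14 and 3.74 FPKM in shTDP43 and between 3.66 and 4.20 FPKM in shNC. The absolute read depth is unknown. The lowest values gave rough relative depths of 1.00 to 1.12 in shTDP43 and 1.16 to 1.28 in shNC. In bulk RNA, fewer cells that express a gene and less RNA per cell cannot be told apart.

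Most genes of the autophagy machinery did not pass the test, and the members called lower lay mainly in the ATG8 family and the cargo receptor list. Of the 36 genes, 35 had a mean of at least 1 FPKM and were tested, and 10 passed a limma adjusted p under 0.05, 8 lower and 2 higher in shTDP43. That is 28.6% of the members, against 38.1% of all 13263 tested genes, which places the members' share below the background. The lower calls made up 22.9% of members against 19.6% of all genes, and the higher calls 5.71% against 18.5%. The median log2 difference was -0.016 for the members and 0.0012 for all tested genes, and the median absolute log2 difference was 0.09 and 0.12. The groups did not overlap in 14 members (40.0%), against 50.7% of all tested genes. Of these, 11 were lower (25.4% of all tested genes) and 3 higher (25.3% of all tested genes). Only GABARAPL1, MAP1LC3A and CALCOCO2 differed by 0.3 or more on the log2 scale, a size that 14.1% of all tested genes reached. A call depends on spread as well as size. GABARAP passed at a log2 difference of -0.10 (SE 0.03), and WIPI1 did not at -0.22 (SE 0.10). Without shNC replicate 1 or without shNC replicate 2 the number lower was 5, and the number higher was 1 when shTDP43 replicate 2, shNC replicate 2 or shNC replicate 3 was left out. It stayed at 2 on leaving out each other library, but not with the same genes. ATG14 was lost whichever library was left out. PIK3C3 passed instead without shNC replicate 1, BECN1 without shTDP43 replicate 1 and ATG12 without shTDP43 replicate 3. The libraries shTDP43 replicate 3 and shNC replicate 1 were low in the small nucleolar RNA SNORD3A, with 8551 and 11541 FPKM against at least 137209 FPKM in the others. Without both of them 4 members were lower and 0 higher, with 2 libraries left in each group.

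**Figure D1:**
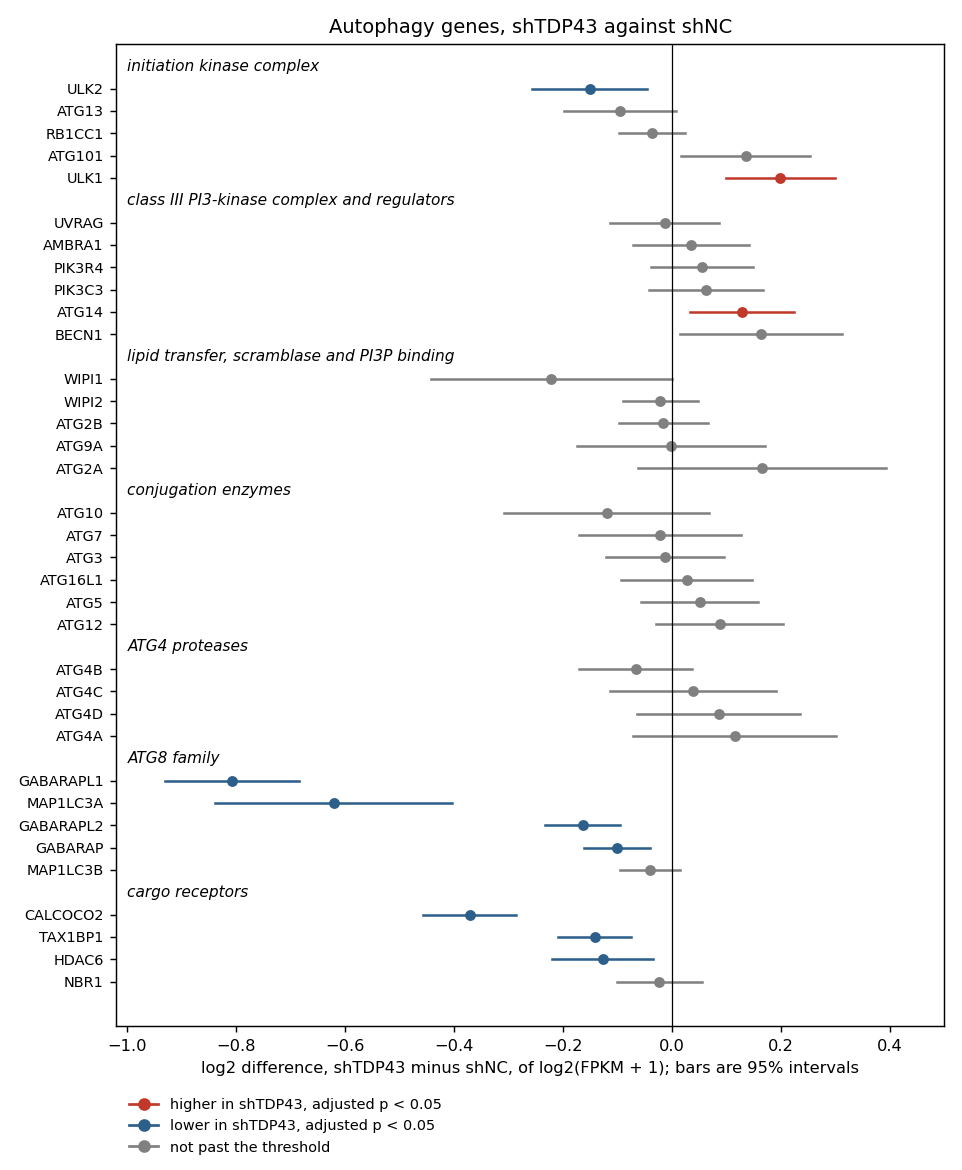
Log2 difference of log2(FPKM + 1) between shTDP43 and shNC (x axis) for the 35 tested autophagy genes, grouped by role, with 95% intervals from limma (3 libraries per group). Most intervals span 0, while GABARAPL1, MAP1LC3A and CALCOCO2 lie farthest to the left at -0.81, -0.62 and -0.37.

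The promoters of 2 members that fell and of the 2 that rose are shown, since these genes moved in opposite directions under the same hairpin. MAP1LC3A is not among the 32 of 36 members whose promoter matched by symbol in RefSeq's annotation of GRCh38.p14. Each run is the 250 bases upstream of the annotated start, on the strand of the gene, and capitals mark the E-box core CACGTG or the forkhead (FOXO) motif GTAAACA on either strand. GABARAPL1 lies on the plus strand (chr12:10212627-10212876), CALCOCO2 on the plus strand (chr17:48830785-48831034), ULK1 on the plus strand (chr12:131894372-131894621) and ATG14 on the minus strand (chr14:55411831-55412080).
GABARAPL1: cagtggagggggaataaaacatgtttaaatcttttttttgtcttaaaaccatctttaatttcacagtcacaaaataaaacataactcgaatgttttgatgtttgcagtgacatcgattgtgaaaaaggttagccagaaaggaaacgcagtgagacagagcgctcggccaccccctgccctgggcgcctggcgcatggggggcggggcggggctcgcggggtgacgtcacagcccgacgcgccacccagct
CALCOCO2: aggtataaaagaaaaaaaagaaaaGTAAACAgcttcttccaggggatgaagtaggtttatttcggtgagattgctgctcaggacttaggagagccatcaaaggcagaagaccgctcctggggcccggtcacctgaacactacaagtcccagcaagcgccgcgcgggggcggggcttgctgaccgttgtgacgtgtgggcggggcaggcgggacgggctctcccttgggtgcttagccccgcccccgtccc
ULK1: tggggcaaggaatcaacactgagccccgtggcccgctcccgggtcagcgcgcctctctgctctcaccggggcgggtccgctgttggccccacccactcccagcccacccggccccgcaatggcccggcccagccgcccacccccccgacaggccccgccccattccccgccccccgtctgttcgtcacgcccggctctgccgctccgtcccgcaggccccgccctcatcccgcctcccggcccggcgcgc
ATG14: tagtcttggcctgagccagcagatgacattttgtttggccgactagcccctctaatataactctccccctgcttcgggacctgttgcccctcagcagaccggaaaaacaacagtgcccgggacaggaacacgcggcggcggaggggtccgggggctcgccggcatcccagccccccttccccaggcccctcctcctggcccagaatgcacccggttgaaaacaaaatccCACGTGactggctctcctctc
The GC content of these runs was 51.6% in GABARAPL1, 58.8% in CALCOCO2, 78.0% in ULK1 and 62.0% in ATG14. The E-box in ATG14 begins 21 bases upstream of the start, and the forkhead motif in CALCOCO2, read on the gene's strand, begins 226 bases upstream. Over windows of 250 bases before to 50 bases after the start, CACGTG was found in 2 of 32 members (ATG3 and ATG14, 6.25%) and in 12.6% of tested genes with a promoter. The longer palindrome TCACGTGA, which contains CACGTG and resembles the site bound by TFEB, was found in 1 member (ATG3, 3.12%) and in 2.24% of tested genes. GTAAACA was found in 1 member (CALCOCO2, 3.12%) and in 3.48% of tested genes. These shares describe letters in a window and not binding.

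In the kinase complex that starts autophagy, the paralogous kinase genes ULK1 and ULK2 changed in opposite directions. ULK1 (chromosome 12, 131894622 to 131923150), the main mammalian initiating kinase, had 6.76, 6.81 and 6.99 FPKM in shTDP43, against 5.85, 5.79 and 5.88 FPKM in shNC. Every shTDP43 library lay above every shNC library, and ULK1 rose to 117.3% of shNC (log2 difference 0.20, SE 0.04; limma adjusted p = 0.00821). ULK2 (chromosome 17, 19770830 to 19867936), its close paralog, had 9.59, 9.67 and 8.79 FPKM in shTDP43 and 10.6, 10.6 and 10.3 FPKM in shNC. The groups did not overlap, and ULK2 fell to 89.1% of shNC (log2 difference -0.15, SE 0.05; limma adjusted p = 0.0312). The ratio of ULK1 to ULK2 FPKM was 0.705, 0.704 and 0.795 in shTDP43, against 0.550, 0.549 and 0.572 in shNC, while the sum of both genes averaged 16.2 ± 0.365 FPKM in shTDP43 and 16.3 ± 0.164 FPKM in shNC (SD, n = 3 each). The sum differed by less than the spread between libraries, while the ratios of the groups did not overlap. The ULK2 call was lost without single libraries, with a limma adjusted p of 0.0836 when shTDP43 replicate 3 was dropped and of 0.0887, 0.0835 and 0.0548 when shNC replicate 1, 2 or 3 was, and with log2 differences between -0.11 and -0.16. Without both low-SNORD3A libraries it was 0.0658 for ULK1 and 0.178 for ULK2.

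The kinases' partners did not pass the test. ATG13, the adaptor that joins the kinase to the complex, averaged 10.2 ± 0.0499 FPKM in shTDP43 and 11.0 ± 0.588 FPKM in shNC (SD, n = 3 each; log2 difference -0.10, limma adjusted p = 0.126). Without shNC replicate 3 the adjusted p of ATG13 was 0.0485, at a log2 difference of -0.14. ATG101, which stabilises ATG13, averaged 15.8 ± 1.14 FPKM in shTDP43 and 14.3 ± 0.432 FPKM in shNC (log2 difference 0.13, limma adjusted p = 0.0720). RB1CC1, also called FIP200, the scaffold of the complex, averaged 25.7 ± 0.416 and 26.4 ± 0.0954 FPKM in shTDP43 and shNC (adjusted p = 0.309). In all 3 genes the libraries of the groups did not overlap, ATG13 and RB1CC1 being lower and ATG101 higher in shTDP43, as was the case in 50.7% of all tested genes in either direction.

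Of the 6 genes of the class III phosphatidylinositol 3-kinase complex and its regulators, 1 rose (16.7%, against 18.5% of all tested genes), 0 fell and 5 did not pass. ATG14 (chromosome 14, 55366391 to 55411830), the subunit that directs the lipid kinase to sites of autophagosome formation, had 8.40, 8.36 and 8.45 FPKM in shTDP43, against 7.63, 7.35 and 7.81 FPKM in shNC. All shTDP43 libraries were above all shNC libraries, at 110.6% of shNC (log2 difference 0.13, SE 0.04; limma adjusted p = 0.0400). This call was lost without each of the 6 libraries in turn, at adjusted p values of 0.0539 to 0.127, with log2 differences of 0.11 to 0.15. UVRAG, which replaces ATG14 in the endosomal form of the complex, averaged 6.64 ± 0.0772 FPKM in shTDP43 and 6.72 ± 0.162 FPKM in shNC (SD, n = 3 each; log2 difference -0.01, 95% interval -0.11 to 0.09; adjusted p = 0.835). BECN1, the beclin 1 scaffold, had 17.6, 21.1 and 18.9 FPKM in shTDP43, against 16.1, 17.7 and 17.2 FPKM in shNC. The groups overlapped, with shTDP43 replicate 1 inside the shNC range, and the adjusted p of 0.0783 became 0.0274 without that library (log2 difference 0.16 with it and 0.22 without). PIK3C3, the catalytic lipid kinase VPS34, averaged 31.2 ± 0.813 FPKM in shTDP43 and 29.9 ± 1.94 FPKM in shNC (adjusted p = 0.318, and 0.0411 without shNC replicate 1, at a log2 difference of 0.11). Its regulatory subunit gene PIK3R4 averaged 12.4 ± 0.249 and 11.9 ± 0.501 FPKM in shTDP43 and shNC, and AMBRA1, a scaffold that links BECN1 to regulation, 8.82 ± 0.405 and 8.58 ± 0.243 FPKM.

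None of the 5 membrane factors passed the test, which 38.1% of all tested genes passed. The lipid transfer gene ATG2B averaged 10.4 ± 0.0922 FPKM in shTDP43 and 10.5 ± 0.167 FPKM in shNC (SD, n = 3 each), a log2 difference of -0.016 with a 95% interval of -0.10 to 0.07. Its paralog ATG2A stood lower in level, at 1.82 ± 0.233 FPKM in shTDP43 and 1.51 ± 0.223 FPKM in shNC (log2 difference 0.17, interval -0.06 to 0.39). ATG9A, the lipid scramblase of autophagosome precursor vesicles, averaged 4.76 ± 0.411 and 4.77 ± 0.388 FPKM in shTDP43 and shNC. WIPI2, a reader of phosphatidylinositol 3-phosphate that recruits the conjugation machinery, averaged 22.4 ± 0.417 and 22.7 ± 0.458 FPKM in shTDP43 and shNC. WIPI1, a paralog of WIPI2, had 4.17, 4.87 and 3.53 FPKM in shTDP43, against 5.46, 4.84 and 4.79 FPKM in shNC. Its groups overlapped through shTDP43 replicate 2 (log2 difference -0.22, 95% interval -0.44 to -0.0008; adjusted p = 0.104), and without that library the difference was -0.31 and the adjusted p 0.0297.

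ATG7 and ATG4B, the members with a reported link to TDP-43, did not differ detectably in gene-level FPKM. ATG7 (chromosome 3, 11272397 to 11576353), the E1-like enzyme that activates ATG8 proteins and ATG12, had 3.86, 3.75 and 3.64 FPKM in shTDP43, against 3.83, 4.12 and 3.53 FPKM in shNC. The shTDP43 values lay within the range of the shNC values, and the log2 difference was -0.02 (SE 0.06, 95% interval -0.17 to 0.13; limma adjusted p = 0.816; exact two-sided permutation p = 0.8). ATG4B (chromosome 2, 241637693 to 241673857), the main protease that trims ATG8 proteins before conjugation and releases them afterwards, had 10.2, 9.38 and 9.97 FPKM in shTDP43, against 10.2, 10.7 and 10.2 FPKM in shNC. Its shTDP43 replicate 1 lay above 2 of the 3 shNC libraries, and the log2 difference was -0.07 (SE 0.05, 95% interval -0.17 to 0.04; limma adjusted p = 0.278; exact two-sided permutation p = 0.3). These intervals cover small falls and small rises, and a switch between splice forms of ATG4B would not show in a value summed over the gene. For ATG7, 18.07% of exonic bases are shared with VGLL4 on the opposite strand in GENCODE 29, and VGLL4 averaged 30.3 FPKM over the 6 libraries. Whether the authors counted by strand is not stated, and a contribution of VGLL4 reads to ATG7 was not tested.

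The other conjugation enzymes and ATG4 proteases did not pass the test either. That makes 0 of 6 enzymes and 0 of 4 proteases past the threshold, which 38.1% of all tested genes passed. ATG3, the E2-like enzyme for ATG8 proteins, averaged 24.0 ± 0.734 FPKM in shTDP43 and 24.2 ± 1.52 FPKM in shNC (SD, n = 3 each). ATG5 and ATG12, which are joined to one another and then act with ATG16L1 to attach ATG8 proteins to the membrane, averaged 8.32 ± 0.268 and 18.4 ± 1.32 FPKM in shTDP43 and 8.00 ± 0.319 and 17.2 ± 0.447 FPKM in shNC. ATG12 had an adjusted p of 0.209, which was 0.0491 without shTDP43 replicate 3, at a log2 difference of 0.14. ATG16L1 averaged 9.50 ± 0.281 and 9.31 ± 0.620 FPKM in shTDP43 and shNC, and ATG10, the E2-like enzyme that joins ATG12 to ATG5, 9.86 ± 1.06 and 10.8 ± 0.972 FPKM. Among the proteases, ATG4C averaged 7.32 ± 0.687 and 7.10 ± 0.330 FPKM in shTDP43 and shNC, ATG4D 4.83 ± 0.376 and 4.49 ± 0.196 FPKM, and ATG4A 2.83 ± 0.219 and 2.54 ± 0.266 FPKM. The 4 protease genes summed to 24.8 ± 0.733 FPKM in shTDP43 and 24.5 ± 0.739 FPKM in shNC, with ATG4B the most abundant of them in each group.

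The ATG8 family fell, with 4 of 5 genes lower in shTDP43 and the fifth, MAP1LC3B, not past the threshold; in all tested genes 19.6% were lower. GABARAPL1 (chromosome 12, 10212877 to 10223128), a member of the GABARAP branch that acts late in autophagosome formation, had 5.30, 5.16 and 4.69 FPKM in shTDP43, against 9.23, 9.68 and 9.84 FPKM in shNC. The groups were far apart, and GABARAPL1 fell to 52.7% of shNC (log2 difference -0.81, SE 0.05; limma adjusted p = 1.89e-05), the largest change among the 35 genes. MAP1LC3A (chromosome 20, 34546844 to 34560345), which encodes LC3A, had 5.91, 5.68 and 7.26 FPKM in shTDP43, against 10.7, 8.99 and 10.8 FPKM in shNC. It varied more between libraries than GABARAPL1 but its groups did not overlap, and it fell to 61.7% of shNC (log2 difference -0.62, SE 0.09; limma adjusted p = 0.00150). GABARAPL2, also called GATE-16, had 105.0, 99.8 and 104.2 FPKM in shTDP43, against 112, 119 and 115 FPKM in shNC. It fell to 89.1% of shNC without overlap of the groups (log2 difference -0.16, SE 0.03; limma adjusted p = 0.00348). GABARAP, the founding member of its branch and the most abundant of the 36 genes, had 255, 256 and 255 FPKM in shTDP43, against 279.5, 279.2 and 264 FPKM in shNC. It fell to 93.1% of shNC (log2 difference -0.10, SE 0.03; limma adjusted p = 0.0176). MAP1LC3B, which encodes the LC3B protein used to mark autophagosomes, had 30.9, 31.0 and 31.3 FPKM in shTDP43, against 32.0, 32.1 and 31.9 FPKM in shNC. All its shTDP43 libraries lay below all shNC libraries, at 97.1% of shNC, a difference that did not pass (log2 difference -0.04, 95% interval -0.10 to 0.01; adjusted p = 0.217).

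**Figure D2:**
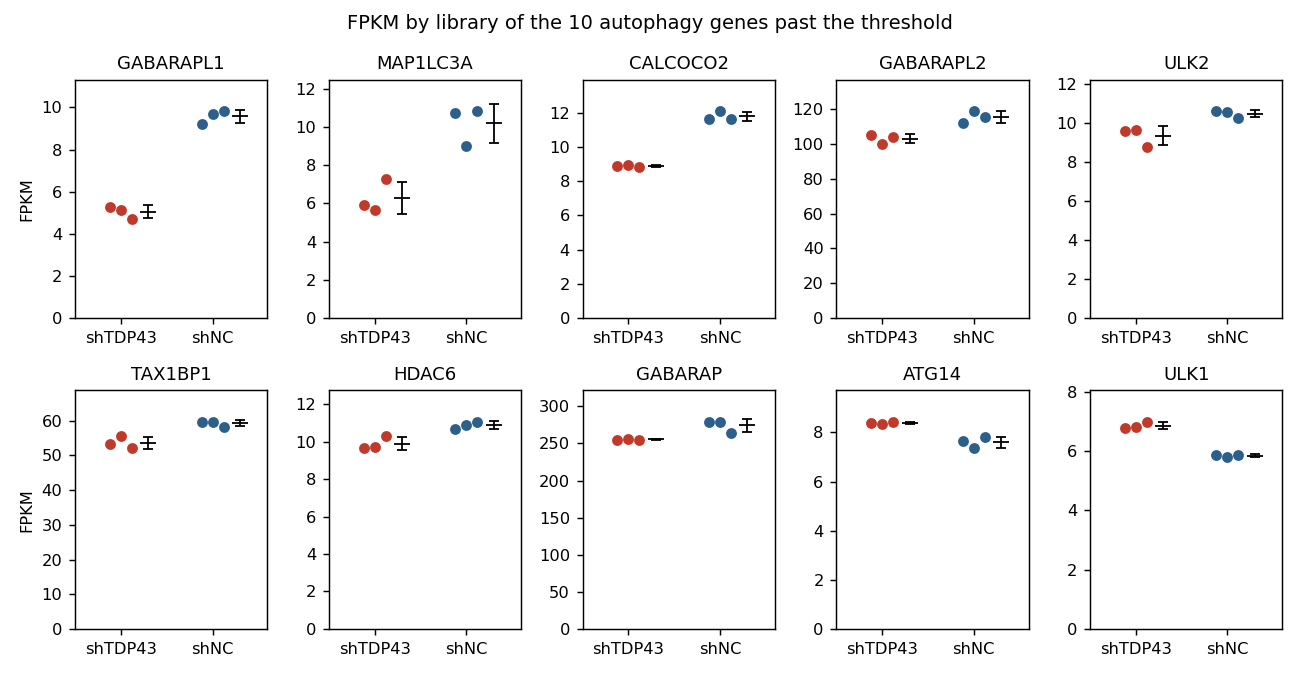
FPKM (y axis, from 0, a separate scale per gene) of the 10 autophagy genes past the threshold in each shTDP43 library (left) and shNC library (right), with the mean and SD of 3 libraries as a black bar beside them. The groups do not overlap in any panel, and GABARAPL1 stands at 52.7% and MAP1LC3A at 61.7% of shNC.

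The 2 large falls are in the genes of lowest level in the family. The summed level of the 5 genes was 401.0 ± 2.59 FPKM in shTDP43 and 442 ± 8.45 FPKM in shNC (SD, n = 3 each), 90.8% of shNC, and no library of shTDP43 reached the lowest shNC sum of 432 FPKM. GABARAP supplied 63.7% of the summed FPKM in shTDP43 and 62.1% in shNC, and GABARAPL2 25.7% and 26.2%. MAP1LC3B made up 7.76% in shTDP43 and 7.25% in shNC, MAP1LC3A 1.57% and 2.31%, and GABARAPL1 1.26% and 2.17%. Most of the FPKM lost from the sum was therefore that of GABARAP and GABARAPL2, although their proportional falls were small. The FPKM ratio of GABARAPL1 to GABARAPL2 was 0.0504, 0.0517 and 0.0451 in shTDP43, against 0.0822, 0.0814 and 0.0852 in shNC. The ratio of MAP1LC3A to MAP1LC3B was 0.191, 0.183 and 0.232 in shTDP43 and 0.335, 0.280 and 0.339 in shNC.

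**Figure D3:**
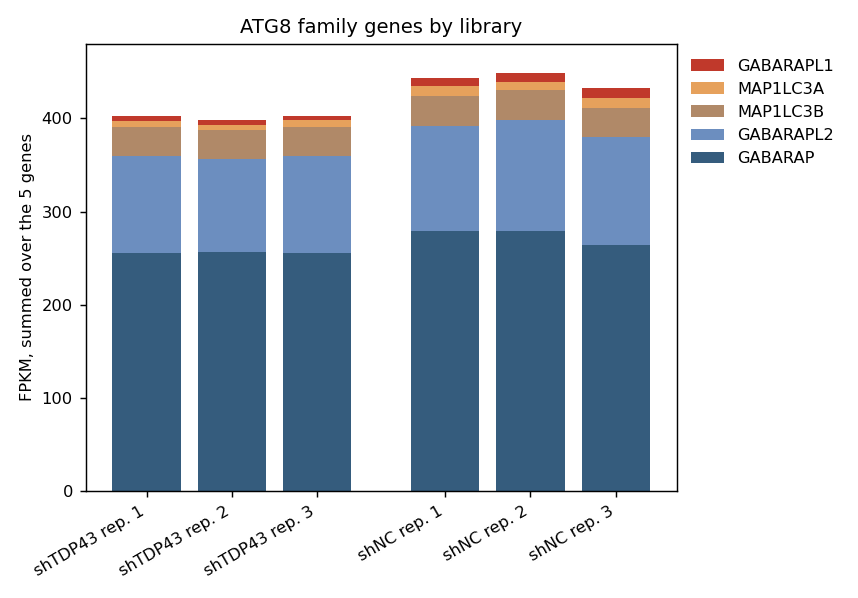
FPKM of the 5 ATG8 family genes stacked for each library (x axis; shTDP43 replicates left, shNC replicates right). The bars reach 398 to 403 FPKM in shTDP43 and 432 to 449 FPKM in shNC, and GABARAP with GABARAPL2 fills most of every bar.

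The falls of GABARAPL1, MAP1LC3A and GABARAPL2 passed in each of the 15 other settings tried, whereas that of GABARAP depended on libraries, scaling and the variance model. The adjusted p of GABARAP was 0.0509 without shTDP43 replicate 3 (log2 difference -0.10) and, on leaving out shNC replicate 1 or 2, 0.0556 or 0.0656 (-0.09 for both), and its difference was -0.06 (adjusted p = 0.156) with quantile normalization. Its adjusted p was 0.0652 with no variance trend and 0.120 without both low-SNORD3A libraries. Near-identical copies were at a low level, with GABARAPL3, a copy of GABARAPL1, between 0.0557 and 0.403 FPKM and MAP1LC3B2, a copy of MAP1LC3B, between 0.0728 and 0.293 FPKM over the 6 libraries, and how reads matching both were counted is not stated. A readthrough gene of GENCODE 29, AC120057.2, shares 30.5% of the exonic bases of GABARAP on the same strand.

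Of the 4 genes listed as cargo receptors 3 fell (75.0%, against 19.6% lower among all tested genes) and the fourth, NBR1, did not pass. HDAC6, 1 of the 3, was listed with the receptors for its handling of aggregates and not as a binder of ATG8 proteins. CALCOCO2 (chromosome 17, 48831035 to 48865245), which encodes NDP52, a receptor for bacteria and damaged mitochondria, had 8.89, 8.97 and 8.81 FPKM in shTDP43, against 11.6, 12.1 and 11.7 FPKM in shNC. The groups were well separated, and CALCOCO2 fell to 75.4% of shNC (log2 difference -0.37, SE 0.04; limma adjusted p = 0.000172). TAX1BP1, a related receptor that clears protein aggregates and ubiquitinated cargo, had 53.2, 55.5 and 52.1 FPKM in shTDP43, against 59.8, 59.8 and 58.2 FPKM in shNC. It fell to 90.5% of shNC without overlap (log2 difference -0.14, SE 0.03; limma adjusted p = 0.00606). HDAC6, a cytoplasmic deacetylase that binds ubiquitin and carries aggregates along microtubules, had 9.66, 9.70 and 10.3 FPKM in shTDP43, against 10.7, 10.9 and 11.1 FPKM in shNC. It fell to 90.8% of shNC (log2 difference -0.13, SE 0.04; limma adjusted p = 0.0378). NBR1, an aggregate receptor that acts beside p62, averaged 23.8 ± 0.869 FPKM in shTDP43 and 24.2 ± 0.337 FPKM in shNC (SD, n = 3 each; log2 difference -0.02, 95% interval -0.10 to 0.05; adjusted p = 0.620). The HDAC6 call was lost without shNC replicate 1, 2 or 3 or without shTDP43 replicate 1 or 2, at adjusted p values of 0.0629 to 0.107 and log2 differences of -0.11 to -0.14. Without both low-SNORD3A libraries only CALCOCO2 of these 4 genes passed, and TAX1BP1 had an adjusted p of 0.0623.

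TFEB, the transcription factor that activates autophagy and lysosome genes, was the only one of the 36 genes under the level tested. It had 0.924, 0.678 and 0.894 FPKM in shTDP43, against 1.21, 0.976 and 0.913 FPKM in shNC, and shTDP43 replicate 1 lay just above the lowest shNC library. Fitted without the filter on low values, its log2 difference was -0.15 (SE 0.08, 95% interval -0.35 to 0.05; limma adjusted p = 0.252).

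TDP-43 binds UG-rich RNA, so the longest protein-coding GENCODE transcript of each gene was searched on its own strand for TGTGTGTGTGTG, that is 6 TG repeats. It was found in 2 of 35 tested members (5.71%), ATG10 with 10 repeats in a row and PIK3C3 with 9, and in 595 of 11600 tested genes with such a transcript (5.13%). Neither of these 2 members passed the test, and 0 of the 10 members past the threshold held the run. Introns, where TDP-43 binds most often, were not analysed here.

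Beyond the 36 genes, 92 further autophagy genes in 5 lists were examined, of which 85 were tested. In these lists 20 were lower and 7 higher in shTDP43, which is 31.8% called against 38.1% of all tested genes. The lower calls made up 23.5% against 19.6% of all tested genes, and the higher calls 8.24% against 18.5%. The number higher was 4 without shTDP43 replicate 3 and 3 without both low-SNORD3A libraries. Of 28 regulators upstream of the ULK complex (the kinase complex mTORC1, AMPK and their control), 9 were lower (32.1%, against 19.6% of all tested genes) and 6 higher (21.4%, against 18.5%). SESN3 and SESN1, sestrins that restrain mTORC1 under stress, fell to 57.9% and 63.3% of shNC. SESN3 averaged 9.47 ± 0.118 FPKM in shTDP43 and 16.4 ± 0.0820 FPKM in shNC, and SESN1 9.04 ± 0.331 FPKM in shTDP43 and 14.3 ± 0.828 FPKM in shNC (SD, n = 3 each; limma adjusted p = 2.18e-06 and 5.71e-05). Other genes that restrain mTORC1, named after their values were seen, went both ways. TSC2, TSC1 and AKT1S1 rose to 118.8%, 112.0% and 112.7% of shNC, while SESN2 and DDIT4 fell to 67.3% and 89.6%. LAMTOR2 and RRAGD, parts of the lysosomal platform that recruits mTORC1, rose to 120.7% and 124.4% of shNC. Of the same platform LAMTOR4 and RRAGA, named after their values were seen, fell to 84.5% and 87.8%, and its other 5 listed genes did not pass.

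Of 21 other cargo receptors and mitophagy genes, 6 were lower (28.6%, against 19.6% of all tested genes) and 0 higher (against 18.5%). Their median log2 difference was -0.10, against 0.0012 for all tested genes. OPTN, the receptor optineurin whose mutation causes amyotrophic lateral sclerosis, fell to 67.3% of shNC, at 4.52 ± 0.294 FPKM in shTDP43 and 6.71 ± 0.0497 FPKM in shNC (SD, n = 3 each; limma adjusted p = 0.000323). BCL2L13, a mitophagy receptor, fell to 72.6%. SQSTM1, which encodes the receptor p62, is 1 of these 6 and is named after its values were seen; it fell to 82.1% of shNC (14.1 ± 0.573 FPKM in shTDP43 and 17.2 ± 0.888 FPKM in shNC; limma adjusted p = 0.00286). Of 14 tested genes for other core and membrane factors, 2 were lower (14.3%, against 19.6% of all tested genes) and 0 higher (against 18.5%). These were SH3GLB1, which binds the lipid kinase complex through UVRAG, at 81.3% of shNC, and TP53INP2, which binds ATG8 proteins, at 85.4%. Of 15 genes for fusion with lysosomes, 2 were lower (13.3%) and 1 higher (6.67%), against 19.6% and 18.5% of all tested genes. The SNARE gene STX7 fell to 76.0% and the late endosomal GTPase gene RAB7A to 90.05% of shNC, while the SNARE gene YKT6 rose to 106.8%. Of 7 transcription factors and their regulators, 1 was lower (14.3%, against 19.6% of all tested genes) and 0 higher. This was FOXO3, a forkhead factor that activates autophagy genes, at 78.1% of shNC (41.5 ± 0.696 FPKM in shTDP43 and 53.1 ± 0.964 FPKM in shNC; limma adjusted p = 3.36e-05).

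**Figure D4:**
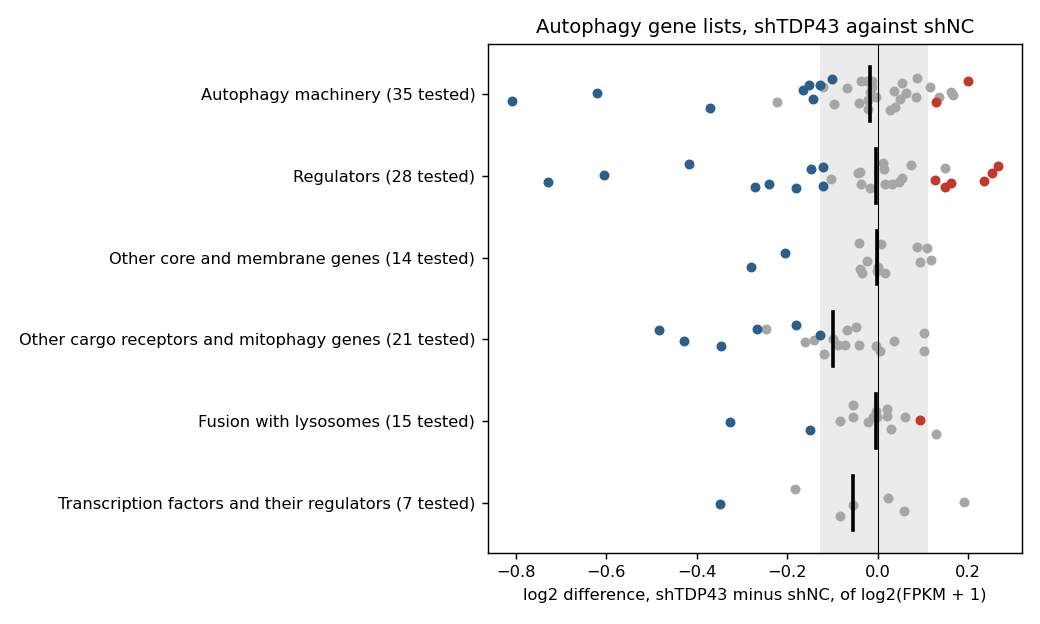
Log2 difference of log2(FPKM + 1) between shTDP43 and shNC (x axis) for each tested gene of the autophagy machinery and of 5 further lists (rows; red higher and blue lower past the threshold, grey not past it). Black bars are list medians and the grey band spans the interquartile range of all tested genes, from -0.13 to 0.11. The median of the other cargo receptors lies at -0.10 and that of the machinery at -0.016.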

How the data were processed

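The authors deposited 1 table of FPKM values per gene symbol and library. Per the submitters' processing notes, the tools were TopHat2 2.1.0, SAMtools and Cuffdiff 2.2.1 and the build was hg38. The sources used here state neither annotation, strand use nor scaling between libraries, although the library kit is directional per the labels' protocols. The members and gene lists, and the rule for named genes, were chosen with earlier results of these data known. The rule named TARDBP, ATG4B, ATG7, every member past the threshold, and the 2 largest changes in each direction of each further list.

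The scale was log2(FPKM + 1). In limma 3.58.1 (R 4.3.3), a model with group as its term and a variance trend was fitted to the 13263 genes whose mean reached 1 FPKM (13109 lay below). The test was two-sided, with Benjamini-Hochberg adjustment over all tested genes at 0.05. This scale understates the change of low genes, so percentages of shNC are ratios of mean FPKM. Relative depth came from the most frequent ratio among 1655 genes with a mean under 0.3 FPKM. No library was a copy of another, since at most 0.0905% of tested genes had equal values in a pair. The fit was tested on simulated data with known changes. Alternatives were other pseudocounts, filters, scalings and variance models, a replicate block, and leaving out libraries. Gene positions and promoters came from RefSeq (GRCh38.p14), and exons and transcripts from GENCODE 29. Listed genes absent under their current symbol were matched by an older one in RefSeq.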

Additional observations from a re-analysis of the deposited data

How the results depend on the processing

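Of 150 values of the 10 called members over 15 alternatives, 119 kept their direction and their call, 31 kept the direction without passing and 0 reversed, and TARDBP, GABARAPL1, MAP1LC3A, GABARAPL2 and CALCOCO2 passed in all 15. Of 369 values of the 25 uncalled members, 363 stayed short of the threshold and 6 passed. Without a filter on low values 1 member was higher, as ATG14 reached an adjusted p of 0.0528, and ULK2 (0.0505) and HDAC6 (0.0509) also missed the threshold in that larger set of tests. Without both low-SNORD3A libraries, which leaves 2 libraries per group, 3322 genes passed in all, 0 members were higher and 4 lower, 1 cargo receptor was lower, 3 further autophagy genes were higher, and the members' median log2 difference was -0.0043. Leaving out 1 library at a time gave 1 to 2 members higher, 5 to 8 lower, 3 to 4 ATG8 genes and 2 to 3 cargo receptors lower, 4 to 7 further autophagy genes higher and 18 to 23 lower, 4025 to 4373 genes past the threshold in all, and a members' median of -0.0328 to -0.0086. The members behind these counts were not the same in each fit, and ATG14 was lost whichever library was left out. The counts for the ATG8 family, the cargo receptors and the further lists under these settings were added after seeing the data. The cause of these shifts was not tested.

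Libraries with the same replicate number showed weak correlation of their deviations (r = -0.07, 0.06 and 0.11 across genes for replicates 1, 2 and 3). Libraries with unlike numbers gave r from -0.20 to 0.13. With 3 libraries per group this cannot decide whether the numbers pair the samples. With a replicate block 4502 genes passed, with 2 members higher and 7 lower. ATG14 (adjusted p = 0.0756) and HDAC6 (0.0589) then missed the threshold and BECN1 (0.0238) passed. Values near 1 FPKM, such as those of ATG2A and TFEB, have wide intervals, which limits what can be said of them.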
